A study of Mus musculus with 27 samples.

Results

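Gene expression in the fetal brain of Cav1-null mice was compared between gestational day 17 (d17) and day 15 (d15), the late phase of fetal brain development covered by the series. The comparison was chosen by strain and day, not by a measured value, and used 6 of the 27 libraries, 3 from d15 and 3 from d17. The Cav1-null strain, B6.Cg-Cav1tm1Mls/J, carries the inactivated Cav1 gene in the germline on a C57BL/6J background, so that all cells of the fetus lack an intact copy and no promoter or Cre limits the deletion to a cell type. The other libraries came from the wild-type inbred strains C57BL/6J and AKR/J and from d12. All fetuses were labelled female, the dams were about 8 weeks old at mating, and the day of the vaginal plug was counted as day 1. Poly-A RNA of the whole dissected brain was sequenced, and the values were read counts per gene. The labels number the fetuses of a group but do not tell whether they came from separate litters, so the p-values measure the spread between these samples.

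In this window of gestation the mouse forebrain is nearing the end of neurogenesis. Radial glia, the neural stem cells that line the ventricles, give rise to intermediate progenitors, which divide once or a few times more and become neurons, and the same stem cells later switch to making astrocytes and oligodendrocytes. The neurons already born extend axons, form synapses and begin to express the receptors and channels of mature cells. Cav1 encodes caveolin-1, the coat protein of caveolae, which are small pits of the plasma membrane found mainly in endothelial and mesenchymal cells.

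The reads on genes ranged from 26846313 to 29090743 per library, the scaling factors from 0.977 to 1.02, and the coefficient of variation between replicates was 11.5%. Pearson's r of log expression across genes ranged from 0.996 to 0.997 between libraries of the same day and from 0.991 to 0.994 between days (genes are not independent replicates). Expression is given below in CPM, the reads on a gene divided by all reads on genes of its library and scaled to a common total. Cav1 was measured at 0, 0.206 and 0.0718 CPM in the d15 libraries and at 0.278, 0.406 and 0.551 CPM in the d17 libraries, which is 0 to 16 reads, and was too low to be tested. The C57BL/6J and AKR/J libraries held 6.36 to 43 CPM of Cav1, so the Cav1-null label held in all 6 libraries. The female label was checked too. Xist, the RNA that silences the X chromosome in females, lay between 4642 and 6291 CPM, and none of the 4 Y-linked genes examined exceeded 4 reads. The d15 and d17 libraries differed in a few technical values. In d17 replicate 1 the 18S ribosomal RNA gene Rn18s took 3.24% of the reads against 0.548% to 1.38% in the other 5 libraries, and the mitochondrial genome took 4.67% against 3.18% to 3.71%. The d15 replicate 2 held transcripts of skin, with a sum of 101 CPM over the 9 epidermal genes of the marker list that are in the table against 23.9 to 47.8 CPM in the other 5 libraries. The counts of list members below are therefore also given without these 2 libraries where that moved them by over 1.5 times.

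Of 20245 genes with enough reads to be tested, 5530 (27.3%) were differentially expressed (DE) between d15 and d17 by edgeR's quasi-likelihood test at a Benjamini-Hochberg adjusted p under 0.05. On d17, 2937 genes (14.5%) were upregulated and 2593 (12.8%) were downregulated. The median log2 fold change, d17 over d15, was 0.61 among the upregulated genes, -0.43 among the downregulated genes and -0.00 over all tested genes. A change of at least 1 on the log2 scale was reached by 626 upregulated and 278 downregulated genes. The values of d15 and d17 did not overlap in 8339 genes (41.2%), which included 2836 of the upregulated and 2531 of the downregulated genes. The number of downregulated genes depended on d15 replicate 2, since 1715 were called without it and 1705 without both it and d17 replicate 1. The test of a model that shared its spread over all 27 libraries of the series called 829 genes, 394 of them upregulated.

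The largest rises included the astrocyte gene Aqp4 and the neuronal genes Nrgn and Thy1. Aqp4 (chr18:15522451-15544039, GRCm39), the water channel of astrocyte endfeet, was measured at 4.69, 5.05 and 4.17 CPM on d15 and at 54.7, 37.4 and 38.4 CPM on d17, a 9.36-fold rise (log2 fold change 3.23 ± 0.17 SE, adjusted p = 2.31e-07). Nrgn, which encodes the postsynaptic calmodulin-binding protein neurogranin, was at 10.4, 10.1 and 10.2 CPM on d15 and at 34.5, 20.5 and 38.5 CPM on d17 (log2 fold change 1.61 ± 0.19, adjusted p = 3.9e-05). Both genes were higher in each d17 library than in each d15 library, and their d17 values were more spread than their d15 values. Thy1, a surface glycoprotein of maturing neurons, rose from 7.49, 7.63 and 5.28 to 28.6, 26.7 and 25.9 CPM, which is 1.99 on the log2 scale. Rasgrf2, an exchange factor that activates Ras and Rac downstream of calcium, rose from 16.7, 15.3 and 15.1 to 44, 52.3 and 47.3 CPM, or by 1.6 on that scale. The rest of the 10 largest rises were Cpne7, a copine that binds membranes in the presence of calcium (2.01), the antiviral factor Shfl (1.92), the glial adhesion protein Hepacam (1.91), the nicotinic receptor modulator Lynx1 (1.62), the secreted neuropeptide precursor Vgf (1.61) and the guanine deaminase Gda (1.61). The rule that chose these 10 genes required a log2 CPM that averaged 3 or more and days that do not overlap. Of the 10, 8 were still called in the model of all 27 libraries, Thy1 and Gda being the exceptions with adjusted p = 0.067 and 0.054.

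**Figure D1:**
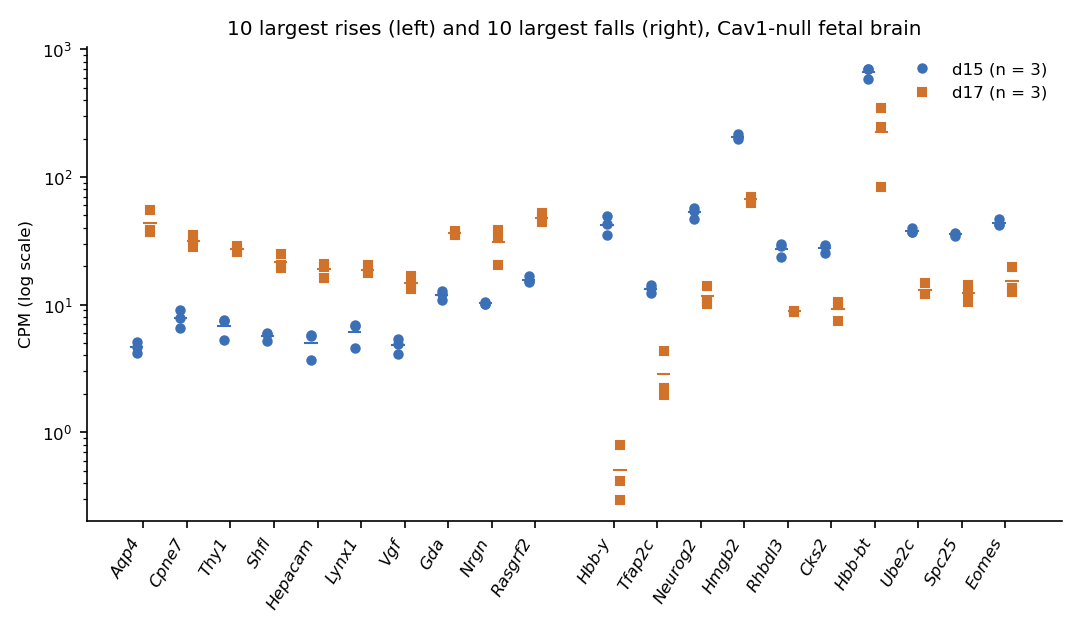
Expression of the 10 genes with the largest rise and the 10 with the largest fall from d15 to d17 in Cav1-null fetal brain, in CPM on a log axis, with 1 point for each library. Genes were chosen among called genes whose log2 CPM averaged 3 or more and whose days do not overlap. The values range from 0.296 to 0.8 CPM against 35.2 to 49.1 CPM in Hbb-y and from 37.4 to 54.7 against 4.17 to 5.05 CPM in Aqp4.

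The largest falls included the embryonic globin Hbb-y, the progenitor transcription factors Neurog2, Tfap2c and Eomes and the cell division genes Cks2, Ube2c and Spc25. Hbb-y (chr7:103500956-103502423), a beta globin of the first red cells made in the yolk sac, was at 35.2, 49.1 and 42.8 CPM on d15 and at 0.8, 0.296 and 0.413 CPM on d17, an 83.2-fold fall (log2 fold change -6.38 ± 0.23, adjusted p = 6.47e-09). Neurog2, a proneural transcription factor that commits cortical progenitors to the neuronal fate, fell from 57.1, 46.7 and 54.5 to 10.1, 10.8 and 13.9 CPM (log2 fold change -2.19 ± 0.12, adjusted p = 4.31e-07). Tfap2c, a transcription factor of basal progenitors, fell from 13.6, 12.2 and 14.2 to 1.95, 2.22 and 4.34 CPM, or by 2.24 on the log2 scale. Eomes, the defining transcription factor of intermediate progenitors, fell from 46.6, 42.1 and 42.4 to 12.6, 13.4 and 19.8 CPM, or by 1.52 on that scale. Hmgb2, a chromatin protein abundant in dividing progenitors, fell from 205, 199 and 216 to 68.5, 62.2 and 69.8 CPM (-1.63). Among the 10 largest falls were also the cell division genes Cks2 (-1.59), Ube2c (-1.55) and Spc25 (-1.54), the rhomboid-like gene Rhbdl3 (-1.63) and the adult beta globin Hbb-bt (-1.55). Cks2 and the 2 adult beta globin genes have near-identical copies in the genome, so their counts are less certain. These 10 were chosen by the same rule. Among them, Eomes (adjusted p = 0.26) and Hbb-bt (0.12) lost their call in the model of all 27 libraries.

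The genes that progenitors use to divide were lower on d17 almost without exception. Of 59 tested genes of mitosis and the G2 phase, 57 were downregulated and none was upregulated, with a median log2 fold change of -1.14 against -0.00 over all tested genes, where 12.8% were downregulated. Cdc25b (-0.26) and Pttg1 (-0.00), which did not pass the test, were the 2 others and were named after their values were seen. Mki67, the proliferation antigen of cycling cells, was at 153, 153 and 173 CPM on d15 and at 74.6, 71.3 and 71.6 CPM on d17 (log2 fold change -1.14 ± 0.08, adjusted p = 9.96e-07). Ccnb1, the cyclin that takes cells into mitosis, was at 48.1, 48.2 and 48.4 CPM and then at 15.0, 18.7 and 17.3 CPM (-1.51 ± 0.09, adjusted p = 5.89e-07). Ube2c, which hands ubiquitin to the anaphase-promoting complex, fell from 36.8, 37.2 and 40 to 12.2, 12.2 and 14.7 CPM, and Spc25, a kinetochore subunit, fell from 34.5, 35.6 and 36.5 to 12.1, 10.6 and 14.1 CPM. The summed expression of the list was 2348 to 2493 CPM on d15 and 1139 to 1233 CPM on d17. In a whole brain, fewer cells of a type and less RNA per cell cannot be told apart.

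Genes of DNA replication were lower on d17 as well. Of 40 tested genes, 36 were downregulated and none was upregulated, and the median was -0.65. Mcm3, a subunit of the replicative helicase, fell from 17.6, 15.7 and 14.5 to 6.61, 7.09 and 8.06 CPM (-1.14), while its partner Mcm2 fell from 18.7, 18.9 and 20.8 to 10.6, 11.2 and 12.5 CPM (-0.77). Pcna, the sliding clamp of the DNA polymerases, fell from 143, 128 and 144 to 78.7, 68.6 and 86.9 CPM (-0.83), and Tyms, which makes thymidylate, fell from 33.6, 32.5 and 35.7 to 18.7, 12.5 and 14.1 CPM (-1.17). Cdc45, which loads with the helicase, fell by 1.22 on the log2 scale. The 4 members that did not pass the test, named after their values were seen, were Orc1 (-0.36), Pola2 (-0.11), Fen1 (-1.12) and the ligase of Okazaki fragments Lig1 (0.11). In the model of all 27 libraries 17 members of the replication list were downregulated.

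The promoters of 4 of the genes that fell, 3 of mitosis and 1 of replication, and of 1 gene of cholesterol synthesis that rose are shown because their sequence holds motifs known from cell cycle and metabolic genes. Each is the stretch of 250 bases before the start of the gene in RefSeq (GRCm38.p6, another build than the GRCm39 of the read counts), written 5′ to 3′ on the strand of the gene. Capitals mark matches, on either strand, to CCAAT, the box bound by the factor NF-Y, to TTTGAA, the core of the cell cycle homology region, and to GGCGGGAA, an E2F site. Ube2c lies at chr2:164769679-164769928 (+ strand), Cdk1 at chr10:69352913-69353162 (- strand), Top2a at chr11:99024190-99024439 (- strand), Rrm1 at chr7:102441445-102441694 (+ strand) and Hmgcs1 at chr13:119690101-119690350 (+ strand).
Ube2c: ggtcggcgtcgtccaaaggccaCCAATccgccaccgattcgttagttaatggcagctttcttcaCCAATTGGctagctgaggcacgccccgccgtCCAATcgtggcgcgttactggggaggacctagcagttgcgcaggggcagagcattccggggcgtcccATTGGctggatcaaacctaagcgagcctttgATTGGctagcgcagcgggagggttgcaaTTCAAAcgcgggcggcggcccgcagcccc
Cdk1: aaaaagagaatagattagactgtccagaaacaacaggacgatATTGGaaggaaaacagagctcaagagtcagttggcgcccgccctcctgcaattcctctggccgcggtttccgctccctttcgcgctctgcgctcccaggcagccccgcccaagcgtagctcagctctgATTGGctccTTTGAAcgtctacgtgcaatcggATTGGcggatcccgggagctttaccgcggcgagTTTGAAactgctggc
Top2a: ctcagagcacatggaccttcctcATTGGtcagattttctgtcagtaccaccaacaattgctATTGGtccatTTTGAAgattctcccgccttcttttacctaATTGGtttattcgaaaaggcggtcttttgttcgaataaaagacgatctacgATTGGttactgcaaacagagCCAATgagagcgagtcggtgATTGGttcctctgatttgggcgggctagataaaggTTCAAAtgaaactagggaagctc
Rrm1: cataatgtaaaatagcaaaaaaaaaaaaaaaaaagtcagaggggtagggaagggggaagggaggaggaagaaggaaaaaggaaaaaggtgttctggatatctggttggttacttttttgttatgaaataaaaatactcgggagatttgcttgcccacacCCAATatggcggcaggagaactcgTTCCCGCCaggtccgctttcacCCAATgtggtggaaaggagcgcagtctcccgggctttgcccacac
Hmgcs1: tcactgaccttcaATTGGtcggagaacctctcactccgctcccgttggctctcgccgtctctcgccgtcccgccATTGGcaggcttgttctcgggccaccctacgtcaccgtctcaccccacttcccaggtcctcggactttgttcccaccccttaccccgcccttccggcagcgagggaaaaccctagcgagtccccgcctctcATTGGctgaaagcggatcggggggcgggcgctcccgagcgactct

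In these windows the last TTTGAA match began 29 bases before the start of Ube2c, 15 before that of Cdk1, the mitotic kinase, and 23 before that of Top2a, the topoisomerase that untangles chromosomes. CCAAT matches lay further upstream, the last of them 57, 48 and 58 bases before these starts. Rrm1, a subunit of the ribonucleotide reductase that makes the building blocks of DNA, had the E2F letters 67 bases before its start, between CCAAT matches at 91 and 45. A promoter was found for 45 of the 57 downregulated mitosis genes, and 71.1% of these held CCAAT and 33.3% held TTTGAA, against 39.8% and 13.5% of the promoters of all 13269 tested genes that had one. Of the 28 downregulated replication genes with a promoter, 64.3% held CCAAT, 10.7% held TTTGAA and 14.3% held GGCGGGAA, which was found in 3.69% of all tested genes and in 0 of the 45 mitosis genes. CCAAT was in 41.7% of the promoters of 24 upregulated astrocyte genes. The palindromic site of the NFI factors was in none of the promoters of these lists and in 0.0377% of all tested genes. Over all 32851 windows of that length in the table, CCAAT was in 33.8%, TTTGAA in 16%, GGCGGGAA in 1.86% and the palindromic NFI site in 0.0365%. A match describes the letters only.

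Genes of intermediate progenitors fell without exception and those of radial glia in part. All 18 genes of intermediate progenitors were downregulated, with a median of -1.11 and a range from -2.61 to -0.56, and no library of d17 reached the range of d15 in any of them. Among all tested genes 12.8% were downregulated, and the days did not overlap in 41.2%. Their summed expression was 525 to 549 CPM on d15 and 226 to 284 CPM on d17. Besides Eomes, Neurog2 and Tfap2c, the neuronal differentiation factor Nhlh1 fell from 9.68, 7.63 and 9.30 to 2.89, 3.29 and 2.31 CPM (-1.65 ± 0.18, adjusted p = 2.83e-05). Of 24 genes of radial glia, 12 were downregulated and 3 were upregulated, with a median of -0.37, where 12.8% and 14.5% of all tested genes were called in these directions. Nes, the intermediate filament of neural stem cells, fell from 69.5, 64.2 and 60.9 to 33.2, 42.9 and 38.2 CPM (-0.77), and Pax6, a transcription factor of cortical stem cells, fell from 69.9, 66.7 and 70.1 to 51.9, 44.7 and 49.5 CPM (-0.50). The hedgehog mediator Gli3 (-0.93), the stem cell surface protein Prom1 (-0.83) and the transcription factor Sox3 (-1.17) fell as well. The genes of the radial glia list that rose were Arhgef28 (0.62), a guanine nucleotide exchange factor, Ddah1 (0.55), which degrades methylated arginine, and the matrix protein Tnc (0.37). The rise of Tnc depended on d17 replicate 1, where it was at 144 CPM against 101 and 119 CPM in the other 2, since its adjusted p was 0.096 (log2 fold change 0.21) without that library, and leaving out any d15 library or d17 replicate 3 also ended its call. In the model of all 27 libraries 8 of the intermediate progenitor genes and 2 of the radial glia genes were downregulated and none was upregulated.

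Genes of astrocytes rose as a group. Of 32 tested genes, 28 were upregulated and 1 was downregulated, the median was 0.91, and the sum over the list went from 1014 to 1204 CPM on d15 to 1780 to 1931 CPM on d17. Gfap, the intermediate filament of astrocytes, was at 0.931, 1.34 and 2.05 CPM on d15 and at 17.9, 7.35 and 16.4 CPM on d17 (9.61-fold, log2 fold change 3.27 ± 0.34, adjusted p = 1.57e-05). Hepacam went from 5.74, 5.67 and 3.70 to 20.9, 19.8 and 16.1 CPM, and Ntsr2, a neurotensin receptor of astrocytes, went from 2.42, 2.61 and 1.83 to 6.78, 7.87 and 6.78 CPM (1.63). Per kilobase of exon, Aqp4 went from a mean of 0.707 to 6.63 CPM per kb and Gfap from 0.252 to 2.43, so that both started low. Fgfr3, a growth factor receptor shared by stem cells and astrocytes, was the member that fell (-0.34), and its call was lost without d15 replicate 1 (adjusted p = 0.097), d15 replicate 2 (0.17), d17 replicate 2 (0.07) or d17 replicate 3 (0.078), and without both d15 replicate 2 and d17 replicate 1. The members that did not pass the test were Gja1 (0.38), Gjb6 (-0.06) and Lcat (0.28), named after their values were seen. Under the model of all 27 libraries, 11 astrocyte genes were upregulated.

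The factors that make stem cells competent for gliogenesis did not move together. Of 17 tested genes, 4 were upregulated and 2 were downregulated, with a median of 0.06, where 14.5% and 12.8% of all genes were called in these directions. The nuclear factors Nfib, at 485, 497 and 561 CPM on d15 and 312, 294 and 353 CPM on d17 (-0.69), and Nfia, at 92.8, 92.7 and 102 CPM and then 65.0, 60.4 and 66.1 CPM (-0.59), fell. Sox9, a transcription factor of radial glia and astrocytes, was at 22.2, 22.4 and 24.9 CPM on d15 and at 18.5, 22.9 and 21.4 CPM on d17, which overlapped. Egfr, the receptor that progenitors of glia express, rose from 9.87, 10.2 and 12.9 to 24.1, 23.1 and 21.9 CPM (1.06 ± 0.12, adjusted p = 4.16e-05), and the cytokine receptor Lifr rose by 0.56. None of the 6 calls was kept in the model of all 27 libraries.

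Most genes of the oligodendrocyte lineage were higher on d17. Of 23 tested genes, edgeR called 15 upregulated and none downregulated, with a median of 0.70. The matrix protein Vcan, named after its value was seen, was the member with a negative value at an unadjusted p under 0.05 (-0.24, adjusted p = 0.0651), and 1 gene of the list was called downregulated by DESeq2, without d15 replicate 1 or without d17 replicate 1. Olig1, a transcription factor of the lineage, was at 16.4, 15.2 and 11.5 CPM on d15 and at 30.1, 42.9 and 43 CPM on d17 (1.42 ± 0.15, adjusted p = 1.51e-05). Pdgfra, the growth factor receptor of oligodendrocyte precursors, rose from 18.1, 22.7 and 15.0 to 44.7, 39.3 and 40.3 CPM (1.15 ± 0.13, adjusted p = 3.3e-05). Gpr17, a receptor of cells about to differentiate, rose from 4.06, 3.68 and 3.20 to 12.3, 12.0 and 9.20 CPM (1.61), and Lhfpl3, a membrane protein of precursors, rose by 1.11. The model of all 27 libraries called 4 genes of this list upregulated.

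**Figure D2:**
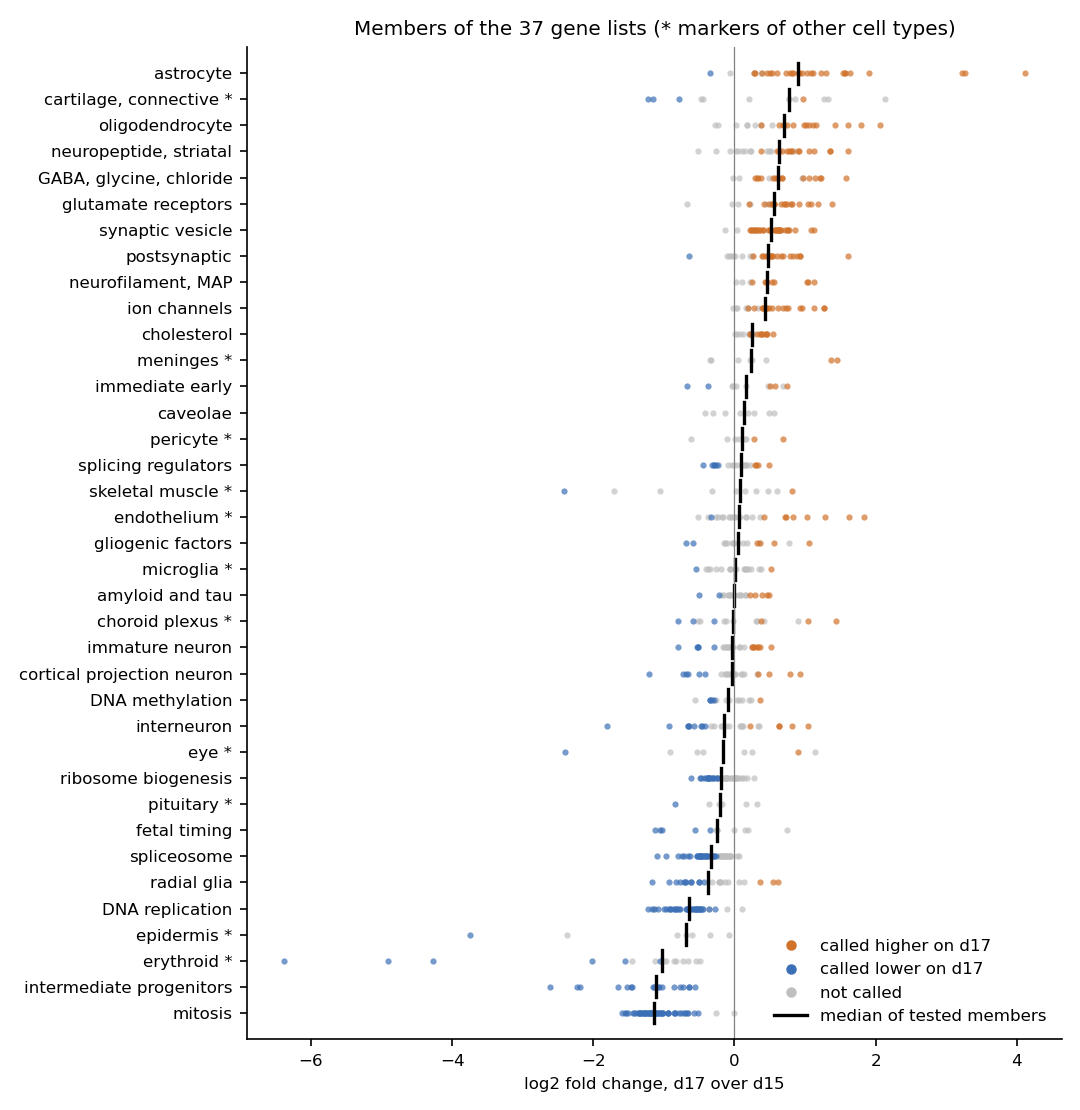
Log2 fold change from d15 to d17 in Cav1-null fetal brain of each tested member of the gene lists, with points coloured by call and a bar at the median of each list. The mitosis list (57 of 59 downregulated, median -1.14) and the intermediate progenitor list (18 of 18, -1.11) lie furthest to the low side among the lists of functions, and the astrocyte list (28 of 32 upregulated, 0.91) lies furthest to the high side.

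Genes that mark types of neurons were called in both directions within the same list. Of 24 genes of cortical projection neurons, 4 were upregulated and 6 were downregulated, and the median was -0.04. Over all tested genes 14.5% were upregulated and 12.8% were downregulated, to which this count and those of the interneuron and immature neuron lists below compare. Fezf2, which specifies neurons that project below the cortex, fell from 76.4, 71.1 and 77.4 to 32.4, 22.8 and 42.5 CPM (-1.21 ± 0.16, adjusted p = 0.000105), and Sox5 (-0.73) and the neuronal differentiation factor Neurod2 (-0.69) fell too. Mef2c, an activity-regulated transcription factor, rose from 115, 124 and 127 to 224, 198 and 275 CPM (0.93). Bcl11b, a marker of corticospinal neurons, was at 104, 111 and 108 CPM on d15 and at 81.6, 140 and 88.9 CPM on d17 and did not pass the test. Among 26 genes of interneurons, 5 were upregulated and 9 were downregulated (median -0.15). Among the regulators of their birth in the ventral forebrain, falls were seen for Nkx2-1 (-0.92) and Dlx2 (-0.66), while the neuropeptide Npy (1.04) and the calcium-binding proteins Calb2 (0.81) and Calb1 (0.64) rose. Gad1, the enzyme that makes GABA, was at 144, 147 and 151 CPM on d15 and at 137, 194 and 153 CPM on d17. The number of upregulated interneuron genes was 3 without d15 replicate 2, with or without d17 replicate 1. In the model of all 27 libraries 1 cortical projection gene was upregulated, and no other gene of these 2 lists was called.

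Of 24 genes of immature neurons, 7 were upregulated and 5 were downregulated (median -0.03), and 0 were called in either direction in the model of all 27 libraries. Dcx, the microtubule protein of migrating neurons, was at 1809, 1902 and 1993 CPM on d15 and at 1750, 1910 and 1905 CPM on d17, and did not pass the test (-0.04). Sox11 fell from 782, 826 and 815 to 496, 596 and 599 CPM (-0.53) and the secreted protein Igfbpl1 from 239, 214 and 192 to 96.3, 125 and 151 CPM (-0.80), whereas the adhesion molecule Ncam1 rose from 180, 183 and 184 to 236, 298 and 252 CPM (0.52). Gap43, the growth cone protein, rose by 0.27, and its call was lost without d15 replicate 2 (adjusted p = 0.065). Without d15 replicate 2, d15 replicate 3 or d17 replicate 3 the upregulated genes of this list numbered 3, 4 and 4. The cytoskeleton of mature axons and dendrites moved in a single direction, with 9 of 12 genes of neurofilaments and microtubule proteins upregulated and none downregulated (median 0.46). Mapt, which encodes tau, rose from 721, 713 and 596 to 817, 1134 and 1011 CPM (0.54 ± 0.11, adjusted p = 0.00212). Nefh, the heavy neurofilament, rose by 1.04, Nefl, the light one, by 0.56, Map1a, a protein of mature dendrites, by 1.02 and the tubulin Tuba4a by 1.12 on the log2 scale. The members that did not pass the test, named after their values were seen, were Nefm (0.10), Ina (0.02) and Tubb4a (0.22). This cytoskeletal list had 0 called genes in the model of all 27 libraries, with adjusted p = 0.46 for Mapt, 0.49 for Nefl, 0.14 for Map1a, 0.058 for Nefh and 0.064 for Tuba4a.

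Many receptor genes for the main transmitters were higher on d17. Of 25 tested glutamate receptor genes, 19 were upregulated, none was downregulated and 6 did not pass the test, with a median of 0.56 and a lowest value of -0.67. Grm5, the metabotropic receptor that couples to calcium stores, was at 86.2, 91.4 and 85.9 CPM on d15 and at 191, 208 and 200 CPM on d17 (1.18 ± 0.07, adjusted p = 4.47e-07), and Grm3, which lowers cyclic AMP, rose from 19.9, 23.5 and 21.2 to 50.2, 60.5 and 58.6 CPM (1.39). Among the NMDA receptor subunits, the obligatory Grin1 rose from 36, 31.7 and 26.3 to 51.4, 62.3 and 50.6 CPM (0.80), the fetal subunit Grin2b rose from 202, 191 and 187 to 283, 296 and 277 CPM (0.56) and Grin2a, which gains weight after birth, rose from 10.1, 7.70 and 9.30 to 22.2, 18.2 and 17.2 CPM (1.09). Per kilobase of exon the mean level of Grin2a was 0.503 CPM per kb on d15 and 1.07 on d17, and that of Grin2b was 7.60 and 11.2, so that Grin2b was the more abundant on both days. Gria2, the AMPA receptor subunit that limits calcium entry, did not pass the test (-0.03) and was named after its value was seen. Under the model of all 27 libraries, 2 glutamate receptor genes were upregulated.

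Of 21 tested genes of GABA and glycine receptors and chloride transport, 17 were upregulated, none was downregulated and 4 did not pass the test, with a median of 0.61. Gabra5, the GABA-A subunit of extrasynaptic receptors in the hippocampus, rose from 31.3, 31.8 and 33.4 to 79.7, 70.6 and 74.6 CPM (1.22 ± 0.08, adjusted p = 9.96e-07). Gabrg3 (1.22), Gabrg1 (1.14) and the glycine receptor gene Glra3 (1.57) rose 2.20-fold to 2.98-fold. Slc12a5, the transporter that extrudes chloride from neurons, rose from 105, 113 and 90.3 to 136, 174 and 140 CPM (0.54). Slc12a2, the transporter that takes chloride up, was named after its value was seen (-0.02, not called). The model of all 27 libraries called 7 genes of this list upregulated.

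**Figure D3:**
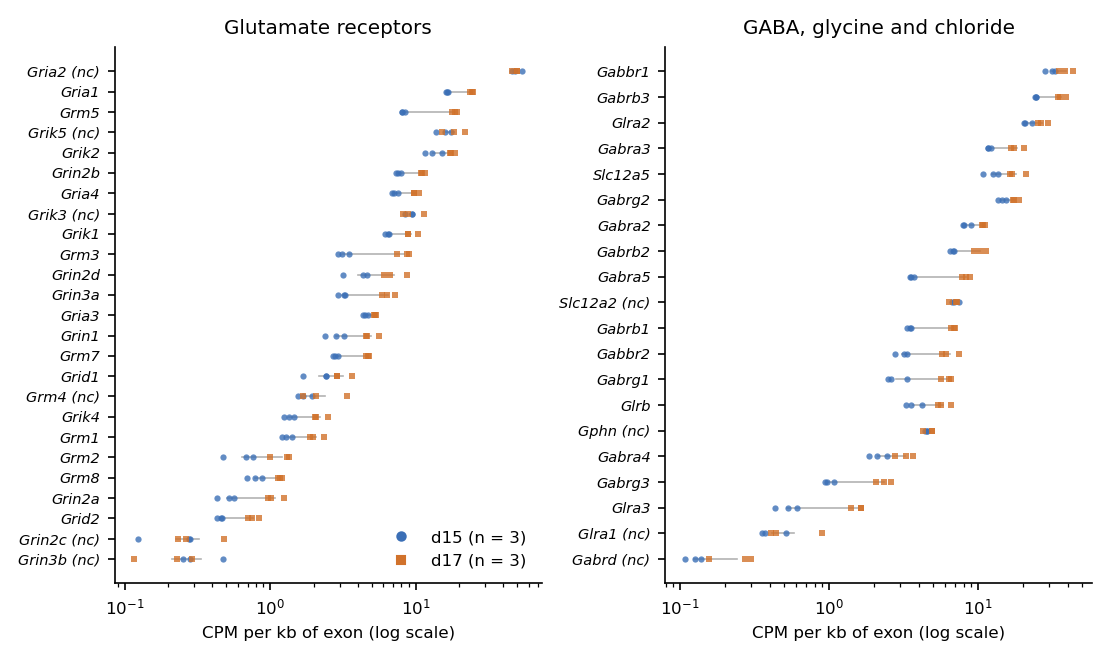
Levels of transmitter receptor subunits and chloride transporters in the 6 Cav1-null libraries, in CPM per kilobase of exon on a log axis, with circles for d15 and squares for d17; genes that did not pass the test are marked nc. Grin2b lies above Grin2a on both days (means of 7.60 and 0.503 on d15, 11.2 and 1.07 on d17).

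The machinery on both sides of the synapse rose widely and by modest amounts. Of 37 genes of synaptic vesicles and their release, 34 were upregulated and none was downregulated (median 0.52), and the sum over the list was 3449 to 3640 CPM on d15 and 4612 to 5194 CPM on d17. Syp, the vesicle protein synaptophysin, rose from 75.6, 68.6 and 60.9 to 89.8, 114 and 92.4 CPM (0.52 ± 0.10, adjusted p = 0.00142). Syn2, a synapsin that tethers vesicles, rose from 38.6, 40.8 and 43.6 to 73.3, 76.7 and 73.0 CPM (0.85), and the calcium sensor Doc2a (1.13) and the vesicle proteins Sv2b (1.08) and Sv2c (0.77) rose as well. Slc17a7, the vesicular glutamate transporter of cortical neurons, was at 20.5, 17.5 and 19.3 CPM on d15 and at 18.4, 10.6 and 23 CPM on d17 (-0.14), and Syt11 (0.04) and Sv2a (0.26), named after their values were seen, did not pass the test either. Of 29 postsynaptic genes, 20 were upregulated and 1 was downregulated (median 0.48). Camk2b rose from 168, 167 and 144 to 263, 305 and 320 CPM (0.88) and its partner Camk2a from 40.1, 43.8 and 40 to 63.4, 77.3 and 59.4 CPM (0.69), both kinases of synaptic plasticity. Dlg4, the scaffold PSD-95, rose by 0.26 with a call that was lost without d15 replicate 2 (adjusted p = 0.077), d15 replicate 3 (0.13), d17 replicate 2 (0.098) or d17 replicate 3 (0.095), and the scaffold Homer3 fell (-0.65). The model of all 27 libraries called 3 genes of the vesicle list and 4 of the postsynaptic list upregulated.

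Genes of ion channels and neuropeptides that passed the test followed the same direction. Of 26 tested channel genes, 20 were upregulated and none was downregulated (median 0.44). Hcn2, a channel of the pacemaker current, rose from 10.1, 10 and 7.61 to 16.4, 27.4 and 23.4 CPM (1.27). Scn1a, a sodium channel of the axon, rose from 70.5, 69.1 and 74.5 to 113, 113 and 105 CPM (0.62). Of 29 tested genes of neuropeptides and the striatum, 15 were upregulated and none was downregulated (median 0.63). Drd2, a dopamine receptor of striatal neurons, rose from 4.84, 3.92 and 4.85 to 8.97, 15.1 and 10.9 CPM (1.35), the neuropeptide Nts by 1.13 and the enkephalin precursor Penk by 0.68. In the model of all 27 libraries 5 channel genes and 3 genes of the striatal list were upregulated. Of 11 tested immediate early genes, 3 were upregulated and 2 were downregulated, against 14.5% and 12.8% of all genes. The downregulated ones numbered 0 without d15 replicate 1, 1 without d15 replicate 2, d17 replicate 1 or d17 replicate 3, and 0 without both d15 replicate 2 and d17 replicate 1, and the model of all 27 libraries called 0 in either direction. Npas4, a transcription factor induced by calcium entry, rose from 14.1, 14.7 and 11.9 to 22.4, 26.4 and 19.9 CPM (0.75), while Fos was at 0.745, 1.31 and 0.898 CPM on d15 and at 0.556, 1.55 and 1.24 CPM on d17.

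Among the genes of cholesterol synthesis and uptake, 10 of 22 were upregulated and none was downregulated, with a median of 0.24. Hmgcs1, whose promoter is printed above with CCAAT matches at 237, 176 and 45 bases before its start, rose from 341, 332 and 286 to 363, 507 and 442 CPM (0.45 ± 0.10, adjusted p = 0.00563). Lss, which closes the sterol rings, rose from 82.1, 82.3 and 75.2 to 104, 116 and 108 CPM (0.45), and Mvd, an enzyme of the mevalonate steps, rose by 0.55. A promoter was found for 8 of the 10 upregulated genes and all 8 held CCAAT. Under the model of all 27 libraries, 3 of these genes were upregulated.

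The list of fetal timing genes had 5 downregulated members of 12 and none upregulated (median -0.25), where 12.8% and 14.5% of all genes were called in these directions. The RNA-binding proteins Igf2bp2, at 56, 63.4 and 56.2 CPM on d15 and 27.8, 28.3 and 24.3 CPM on d17 (-1.13 ± 0.09, adjusted p = 2.62e-06), and Igf2bp1, at 49.3, 56.8 and 58.2 CPM and then 26.1, 24.5 and 28.6 CPM (-1.06), fell, as did the chromatin protein Hmga2 (-1.02), Igf2bp3 (-0.55) and Mycl (-0.34), the last 2 named after their values were seen. Lin28b, which blocks the maturation of let-7, was at 48.5, 50.8 and 53.5 CPM on d15 and at 56, 66.5 and 53.4 CPM on d17 (0.20, not called). Of 14 tested genes of DNA methylation, 4 were downregulated and 1 was upregulated, against 12.8% and 14.5% of all genes. Dnmt3a, which methylates unmethylated DNA, rose from 149, 147 and 139 to 168, 216 and 175 CPM (0.36), Dnmt1, which maintains methylation, was at 0.06 and not called, and the number of downregulated members was 2 without d15 replicate 1, 1 without d15 replicate 2, with or without d17 replicate 1, and 2 without d17 replicate 3. In the model of all 27 libraries 3 of the fetal timing genes were downregulated and 0 genes of DNA methylation were called.

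A part of the genes of RNA processing was lower on d17. Of 53 tested spliceosome genes, 30 were downregulated and none was upregulated (median -0.33), and 23 did not pass the test. Snrpg and Snrpe, small proteins of the ring around spliceosomal RNAs, fell from 89.8, 75.8 and 77.1 to 39.2, 33.4 and 40.7 CPM (-1.10 ± 0.10, adjusted p = 5.03e-06) and from 158, 154 and 151 to 90.8, 64.5 and 81.2 CPM (-0.97), and Lsm5 fell by 0.80 on the log2 scale. Snrpg has processed copies in the genome, so its count is less certain. Sf3b1, a large subunit at the branch point, was at 641, 659 and 728 CPM and then at 614, 565 and 595 CPM (-0.20, not called). Of 45 genes of ribosome biogenesis, 16 were downregulated and none was upregulated (median -0.19), where 29 did not pass the test and 12.8% of all genes were downregulated, with 10 without d15 replicate 2 and 7 without it and d17 replicate 1. With d15 replicate 2 left out, 1 gene of ribosome biogenesis was called upregulated. Npm1, the nucleolar chaperone, fell from 559, 572 and 596 to 359, 386 and 384 CPM (-0.62), while the nucleolar protein Ncl was at 455, 468 and 441 CPM and then at 380, 446 and 432 CPM (-0.12, not called). Of 21 splicing regulators 4 were upregulated and 6 were downregulated, against 14.5% and 12.8% of all genes, with 3 downregulated without d15 replicate 2 and 1 without it and d17 replicate 1. Ptbp1, the repressor of neuronal exons in progenitors, fell from 69.2, 66.5 and 65.0 to 48.9, 47.5 and 50.6 CPM (-0.45 ± 0.07, adjusted p = 0.000525), and the neuronal regulators Rbfox1 (0.31) and Celf4 (0.30) rose. The model of all 27 libraries called 2 spliceosome genes and 1 gene of ribosome biogenesis downregulated and 0 splicing regulators.

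Of 21 genes of the amyloid and tau pathway, 5 were upregulated and 2 were downregulated, and the median was -0.00, where 14.5% and 12.8% of all genes were called in these directions. App, the amyloid precursor, rose from 166, 160 and 141 to 187, 228 and 199 CPM (0.39 ± 0.08, adjusted p = 0.00399), Psenen, a subunit of gamma-secretase, fell by 0.51, and Bace1, the beta-secretase, was at 54.2, 60 and 52.9 CPM and then at 53.7, 60.8 and 52.9 CPM. Without d15 replicate 2 or d15 replicate 3 the upregulated members were 3, and without both d15 replicate 2 and d17 replicate 1 there was 1. The gamma-secretase subunit Ncstn, which fell by 0.22 and was named after its value was seen, lost its call without any single library (adjusted p = 0.059 to 0.11), and 0 genes of the list were called in the model of all 27 libraries. Of the 8 tested genes of caveolae, edgeR called none, and 2, Cav2 and Cavin2, had an unadjusted p under 0.05. DESeq2 called 1 gene of this list upregulated, edgeR with library sizes alone called 2, and 1 or 2 were called without d15 replicate 2 (1), d15 replicate 3 (1), d17 replicate 2 (2) or both d15 replicate 2 and d17 replicate 1 (1). Cav2, which needs caveolin-1 to reach the cell surface, was at 15.7, 19.9 and 25.3 CPM on d15 and at 33.3, 22.4 and 29.8 CPM on d17 (0.49 ± 0.17, adjusted p = 0.0513), and the days overlapped.

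Long genes were upregulated more often than short ones. Among protein-coding genes that span over 300 kb in the genome, 51.5% of 546 were upregulated and 5.68% were downregulated, and the median log2 fold change was 0.35. Among the 3181 genes that span under 10 kb, 10.5% were upregulated and 21.2% were downregulated, and the median was -0.09. The shares of the classes in between rose with span, from 12.5% upregulated at 10 to 30 kb over 17.9% at 30 to 100 kb to 33.3% at 100 to 300 kb. The median span was 51.8 kb for the 2689 upregulated, 18.1 kb for the 2374 downregulated and 25.9 kb for the 10162 other protein-coding genes. In C57BL/6J 16.4% and in AKR/J 38.4% of the genes over 300 kb were upregulated between the same days, against 6.26% and 10.9% of those under 10 kb. The downregulated share was 7.93% over 300 kb and 6.11% under 10 kb in C57BL/6J, the opposite order to Cav1-null, and 7.93% and 11.2% in AKR/J.

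**Figure D4:**
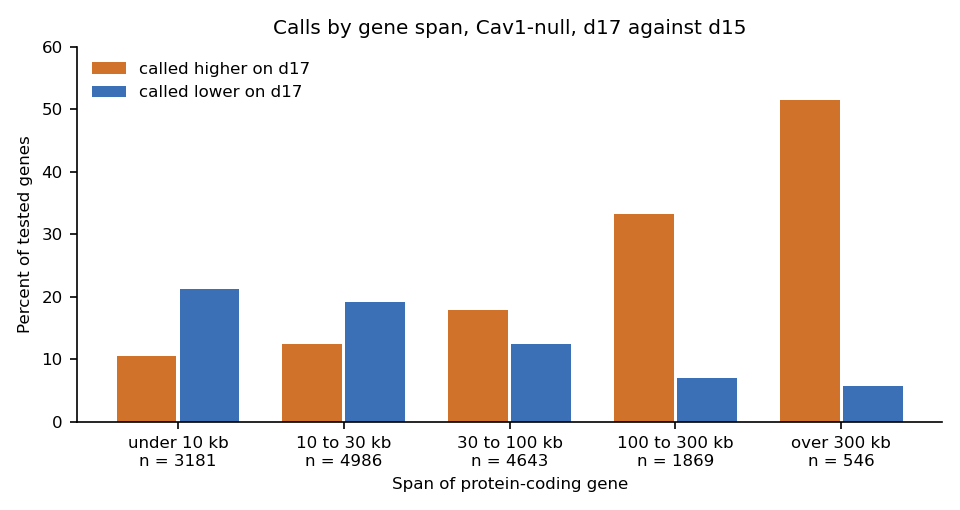
Percent of protein-coding genes upregulated and downregulated from d15 to d17 in Cav1-null fetal brain, by the span of the gene in the genome in kb. The upregulated share goes from 10.5% under 10 kb to 51.5% over 300 kb, and the downregulated share from 21.2% to 5.68%.

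Lists for cells that could be carried over with the brain were examined beside these groups. Their counts compare to 14.5% upregulated and 12.8% downregulated among all tested genes. The 21 microglial genes summed to 144 to 158 CPM on d15 and 138 to 159 CPM on d17, with 1 upregulated and 1 downregulated (Sall1, -0.55) of 20 tested, and the receptors Cx3cr1 (0.35) and Csf1r (0.38) not called; the downregulated were 2 without d17 replicate 1, with or without d15 replicate 2. Of 26 endothelial genes, 8 were upregulated and 1 was downregulated (median 0.07), and 5 were upregulated without d15 replicate 3 or without d17 replicate 2. The downregulated endothelial genes numbered 0 without d15 replicate 2 or d17 replicate 3 and 2 without d17 replicate 1. Flt1, a receptor for VEGF, rose from 10.3, 9.63 and 6.61 to 21.2, 25.2 and 18 CPM (1.28) and Vwf, the clotting protein stored in endothelium, from 4.73, 3.64 and 2.98 to 11.4, 15.0 and 8.64 CPM (1.62), while the tight junction protein Cldn5 was at 24.5, 20.6 and 16.2 CPM and then at 19, 23.4 and 22.9 CPM (0.09). Of 15 genes of the choroid plexus, 3 were upregulated and 3 were downregulated, where 14.5% and 12.8% of all genes were called in these directions, among them the prolactin receptor Prlr (1.44) and the potassium channel subunit Kcne2 (-0.80). Its main product Ttr fell by 0.29 on the log2 scale with a call that was lost without any of 4 single libraries (adjusted p = 0.24 without d15 replicate 2, 0.057 without d15 replicate 3, 0.099 without d17 replicate 1 and 0.12 without d17 replicate 3).

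The 9 genes of the meninges summed to 57.7 to 91.4 CPM on d15 and 94.8 to 218 CPM on d17, the highest in d17 replicate 1. Of 8 tested, 2 were upregulated, the prostaglandin synthase Ptgds, at 12.4, 37.6 and 47 CPM on d15 and 143, 34.8 and 86.5 CPM on d17 with overlapping days, and the collagen Col15a1 (1.36), and the defining factors Foxc1 (0.25) and Foxc2 (0.05) were not called. With 1 library left out the upregulated meningeal genes numbered 1 to 3, and 2 were called lower without d17 replicate 1. Ptgds was no longer called without d17 replicate 1 (0.88, adjusted p = 0.10), d15 replicate 1 (0.075), d15 replicate 2 (0.055) or d17 replicate 3 (0.073), or by DESeq2 (0.15). Skeletal muscle genes summed to 32.9 to 47.8 and 37.6 to 49.2 CPM, those of cartilage and connective tissue to 156 to 265 and 125 to 252 CPM, those of the eye to 11 to 13.1 and 10.05 to 13 CPM and those of the pituitary to 10.3 to 14.2 and 8.86 to 11.05 CPM. Of 10, 13, 8 and 6 tested members, 1, 1, 1 and 0 were upregulated and 1, 3, 1 and 1 were downregulated. The shares over all tested genes were 14.5% and 12.8%, to which these counts and those of the meninges and pericytes compare. With 1 library left out the upregulated members ranged from 0 to 4 for cartilage and connective tissue (4 without d17 replicate 2, and 0 by DESeq2) and from 0 to 2 for the eye (2 without d15 replicate 3). Muscle had 2 upregulated without d15 replicate 2 and 2 downregulated without d15 replicate 1, and the downregulated pituitary genes numbered 0 without d15 replicate 1, d15 replicate 2, d17 replicate 2 or d17 replicate 3. The hormone gene Gh of the pituitary was at 0 in all 6 libraries, and the lens gene Cryaa was at 0 in 5. Of the epidermal genes, Krt5 was called lower, at 0.0745, 5.88 and 2.23 CPM on d15 and 0.487, 0.0369 and 0.0689 CPM on d17, and lost its call without d15 replicate 2 (adjusted p = 0.12), d17 replicate 2 (0.056) or d17 replicate 3 (0.08). The number of epidermal genes called lower was 7 without d15 replicate 1, 4 without d17 replicate 1, 2 without d17 replicate 2 and 3 by DESeq2. Of 8 pericyte genes 2 were upregulated and none was downregulated. The upregulated ones numbered 1 without d15 replicate 1, d15 replicate 2, d17 replicate 1 or d17 replicate 3, and 1 was called lower without d17 replicate 1. Without both d15 replicate 2 and d17 replicate 1 the upregulated pericyte, meningeal and eye genes numbered 0, 1 and 0, and the downregulated epidermal, pituitary and meningeal genes 0, 0 and 1.

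Red cell transcripts changed in level and in kind. The 20 erythroid genes in the table summed to 3114 to 3857 CPM in the d15 libraries and to 2687, 624 and 1807 CPM in d17 replicates 1, 2 and 3, and 6 of 16 tested genes were downregulated and none was upregulated, with 10 downregulated without both d15 replicate 2 and d17 replicate 1. Hba-x, the embryonic alpha globin, went from 7.56, 9.93 and 5.82 to 0.417, 0.406 and 0.379 CPM (-4.27 ± 0.28, adjusted p = 6.7e-07). The adult globins had smaller falls. Hbb-bs was at 1636, 2054 and 1983 CPM on d15 and at 1487, 317 and 912 CPM on d17 (-1.05 ± 0.36, adjusted p = 0.0434), and its call was lost without any of the 3 d15 libraries (adjusted p = 0.06, 0.11 and 0.099) or d17 replicate 3 (0.14). The call of Hbb-bs was also lost by DESeq2 (adjusted p = 0.15) and in the model of all 27 libraries (0.39). Hbb-bt went from 583, 706 and 697 to 346, 84.0 and 244 CPM (-1.55). In C57BL/6J the summed erythroid genes were at 744 to 998 CPM on d15 and at 2308 to 3195 CPM on d17. The share of blood left in the dissected brains was not tested.

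The same days were compared in the other strains, each on its own 6 libraries, which are shared with none of the 6 Cav1-null libraries. Some of these libraries stood apart. Transcripts of cartilage and connective tissue summed to 423 to 5438 CPM in C57BL/6J on d15, to 1193 CPM in its d17 replicate 1 and to 1865 CPM in AKR/J d15 replicate 2, against 125 to 265 CPM in Cav1-null, and mitochondrial reads ranged from 1.53% to 4.43% in C57BL/6J on d17. Their part in the values below was not tested. Of the genes upregulated in Cav1-null, 79.6% of the 2909 tested in C57BL/6J and 86.6% of the 2880 tested in AKR/J had the same sign there, against 62.2% and 65.6% of all genes tested in both strains. In C57BL/6J 839 of them were called higher and 1 lower, with 7.46% of all genes called higher in that strain, and in AKR/J 1357 were called higher and 11 lower, with 11.6% called higher. Of the genes downregulated in Cav1-null, 72.8% in C57BL/6J and 76.1% in AKR/J had the same sign, 710 were called lower and 18 higher in C57BL/6J (5.58% of all genes called lower), and 1006 were called lower and 62 higher in AKR/J (10.4%). The genes called in all 3 strains numbered 671 upregulated and 601 downregulated. These counts depended on single libraries of C57BL/6J and AKR/J: leaving out 1 library in turn, the genes called in the same way ranged from 72 to 1115 (upregulated) and 63 to 1034 (downregulated) in C57BL/6J and from 773 to 1464 and 452 to 1094 in AKR/J, and those called the opposite way ranged from 0 to 257 and 1 to 300 in C57BL/6J and from 0 to 23 and 7 to 132 in AKR/J.

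The lists of dividing cells and of astrocytes had medians of the same sign in the other strains, and lists of neurons did so in part. For mitosis the median was -1.35 with 56 genes downregulated in C57BL/6J and -1.20 with 59 in AKR/J, and for intermediate progenitors it was -1.56 with 16 and -1.08 with 15. For astrocytes it was 0.78 with 14 genes upregulated in C57BL/6J and 0.68 with 17 in AKR/J, and for synaptic vesicles 0.21 with 5 and 0.40 with 17. For neurofilaments and microtubule proteins the median was -0.16 in C57BL/6J and 0.11 in AKR/J against 0.46 in Cav1-null. Without C57BL/6J d17 replicate 1 the medians of these last 2 lists in that strain were -0.04 and -0.49. Radial glia genes had medians of -1.03 and -0.80 against -0.37 in Cav1-null, and oligodendrocyte genes had medians of 0.28 and 0.19 against 0.70. Between d12 and d15 in the Cav1-null strain, a comparison that shares the d15 libraries, the medians were -1.26 for mitosis, -1.05 for replication, -0.95 for intermediate progenitors, 0.36 for astrocytes and -0.14 for oligodendrocytes. Aqp4 rose by 4.09 and 2.28 on the log2 scale in C57BL/6J and AKR/J, and Neurog2 fell in both (-2.61 and -1.46). For Snrpg, Snrpe and Lsm5 the values were 0.15, 0.12 and 0.43 in C57BL/6J and -0.03, 0.09 and 0.15 in AKR/J, and none of these passed the test. The whole spliceosome list had a median of -0.25 with 3 genes downregulated in C57BL/6J and -0.22 with 18 in AKR/J. In Cav1-null the median was -0.33 with 30 downregulated.

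**Figure D5:**
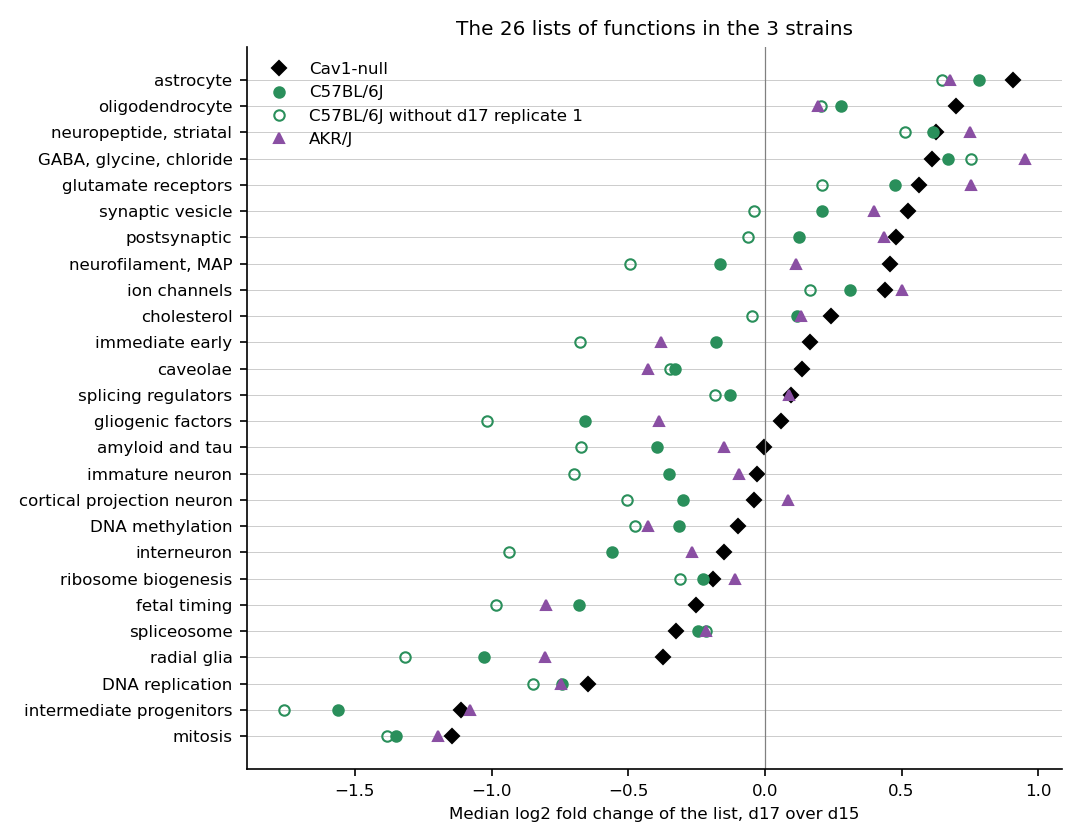
Median log2 fold change from d15 to d17 of 26 lists of functions in Cav1-null, in C57BL/6J with all libraries and without d17 replicate 1, and in AKR/J. The mitosis medians lie at -1.14, -1.35 and -1.20 in Cav1-null, C57BL/6J and AKR/J, and the astrocyte medians at 0.91, 0.78 and 0.68.

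Whether the late change differed from that of the background strain was tested as an interaction of strain and day over the 12 libraries of Cav1-null and C57BL/6J. Of 21431 genes, 54 (0.252%) differed, 7 with a larger and 47 with a smaller value in Cav1-null, and 4683 had an unadjusted p under 0.05. By type, 25 of the 54 were of the Ensembl class TEC (unspliced models that await experimental evidence), 19 were protein-coding and 7 were long non-coding RNAs. Large negative values of protein-coding genes were those of the adult beta globins Hbb-bs (-3.14) and Hbb-bt (-2.95). Hbb-bs was at 354, 254 and 303 CPM on d15 and 1008, 1709 and 1451 CPM on d17 in C57BL/6J, the opposite direction to Cav1-null. Negative values of this size were also seen for the models Gm42992 (-3.74), Gm10862 (-3.29) and 2900027M19Rik (-3.28). These names, and the positive ones that follow, were taken from called genes whose log2 CPM averaged 1 or more over the 12 libraries. The other 25 called genes lay under that level, 24 of them with a smaller value in Cav1-null. Among these was Gm34245, named after its value was seen, which was at 0 in all 3 d15 libraries of C57BL/6J and at 0.582, 1.14 and 0.935 CPM on d17.

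The largest positive values at that level were for Pou4f1 (1.62), Txnip (1.16), Thsd7a (1.01), Mcc (0.96), Lig1 (0.88) and Tfap2b (0.80), with adjusted p = 0.0174, 0.0341, 0.0494, 0.0425, 0.0201 and 0.0494. Lig1 was at 37.6, 39.2 and 39.3 CPM on d15 and 39.7, 43.9 and 42.3 CPM on d17 in Cav1-null, and at 79.3, 69.6 and 71.1 CPM and then 45.8, 45.4 and 47.9 CPM in C57BL/6J. Pou4f1, a transcription factor of sensory and midbrain neurons, was at 11.4, 10.5 and 10.9 and then 9.32, 10.1 and 9.51 CPM in Cav1-null, and at 34.3, 41.7 and 49.4 and then 13.6, 11 and 13.7 CPM in C57BL/6J. In both genes the d15 libraries of C57BL/6J lay apart from the other 9. The remaining gene with a larger value in Cav1-null, the pseudogene Gm13736, named after its value was seen, was at 0.0348 to 0.276 CPM in the Cav1-null libraries, and at 3.70, 2.94 and 2.98 CPM on d15 and 0, 0 and 0.0334 CPM on d17 in C57BL/6J. Those d15 libraries held 37191332 to 39759702 reads and 1.21% to 1.31% mitochondrial reads, against 3.18% to 3.71% in Cav1-null on d15, and the part of these differences in the interaction was not tested. The number of interaction genes rested on single libraries. It was 5792 (3742 larger and 2050 smaller in Cav1-null) without C57BL/6J d17 replicate 1, 105 without C57BL/6J d17 replicate 2, 3 to 26 without any other C57BL/6J library or without Cav1-null d15 replicate 2, d17 replicate 1 or d17 replicate 2, and 0 without Cav1-null d15 replicate 1, d15 replicate 3 or d17 replicate 3, where 4166, 3613 and 4120 genes had an unadjusted p under 0.05 by edgeR. The genes named here at the average of 1 or more were called with and without C57BL/6J d17 replicate 1. All 12 genes that the rule chose for the interaction lost their call with the replicate block, and 11 of them in the model of all 27 libraries. DESeq2 called 1294 genes, which included all 54.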

How the data were processed

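Total RNA was isolated from whole fetal brains of 3 strains, Cav1-null, C57BL/6J and AKR/J, and poly-A RNA was sequenced in 27 libraries, 3 for each strain and day. The authors deposited a table of raw counts, the whole number of reads on each Ensembl gene. The submitters' processing notes name FastQC, cutadapt, fastp, STAR, edgeR, bedtools and the build GRCm39; the counting tool, its use of strand and of reads with several matches, and the versions are not given in the sources used here. Exons of 124 of the 218 named genes overlap an annotated gene of the opposite strand and those of 10 a gene of the same strand, so that their counts may hold reads of the neighbour. The table of splice junction reads was not used here.

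Groups were taken from strain and day in the sample labels. The counts of the 3 d15 and 3 d17 Cav1-null libraries were fitted in R 4.3.3 with edgeR 4.0.16 (filterByExpr, TMM, glmQLFit, glmQLFTest) with day as the only term, and a gene was called where its p, adjusted by Benjamini and Hochberg, was under 0.05 over all 20245 tested genes. All adjusted p-values in the text come from this test unless another setting is named. Standard errors were derived from the log2 fold change and the F of its test. CPM used the library total on genes, and levels were compared between genes only per kb of exon. The C57BL/6J and AKR/J libraries were fitted in the same way, and the difference from C57BL/6J was tested by the interaction of strain and day over 12 libraries. The scripts were tested on simulated data. The alternatives were the likelihood ratio test, DESeq2 1.42.0, RLE factors, library sizes alone, other filters, a fold threshold, a model of all 27 libraries, a block for the replicate number, and each library left out in turn. Leaving out d15 replicate 2 and d17 replicate 1 together was added after seeing the data.

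The genes named were Cav1, the 10 largest rises and 10 largest falls among called genes whose log2 CPM averaged 3 or more and whose days did not overlap, and in each of 37 lists the first 2 genes and up to 4 called rises and 3 called falls whose log2 CPM averaged 1 or more; for the interaction, the 6 largest differences each way among called genes at that same average. Some genes that these rules name are not reported here. Any other name was chosen after its values were seen. The comparison, the lists and the rules were chosen with earlier results of these data known. The lists were described by counts and medians, with no set test. Promoters were read from a RefSeq table of GRCm38.p6, by symbol. The depth of 26846313 to 29090743 reads on genes per library makes counting error small for a gene at 10 CPM and large for one under 1 CPM.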

Additional observations from a re-analysis of the deposited data

Results flagged for a closer look

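A test of the difference between strains drew attention to 54 genes whose change from d15 to d17 was not the same in Cav1-null as in C57BL/6J by the interaction term of edgeR's quasi-likelihood test. Among called genes whose log2 CPM averaged 1 or more, large differences toward a lower value in Cav1-null, on the log2 scale, were -3.74 for Gm42992, -3.29 for Gm10862, -3.28 for 2900027M19Rik, -3.14 for Hbb-bs and -2.95 for Hbb-bt. For Gm10862 the Cav1-null change itself was not called (0.60), and the C57BL/6J libraries went from 0.151, 0.371 and 0.161 CPM on d15 to 2.91, 3.43 and 4.77 CPM on d17.

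The 6 largest differences toward a higher value in Cav1-null at that level of expression were 1.62 for Pou4f1, 1.16 for Txnip, 1.01 for Thsd7a, 0.96 for Mcc, 0.88 for Lig1 and 0.80 for Tfap2b. Txnip, a regulator of thioredoxin and glucose uptake, was at 26.9, 24.4 and 22.4 CPM on d15 and 30.3, 36.3 and 30.5 CPM on d17 in Cav1-null, and at 62.2, 49.5 and 51.5 CPM and then 32.9, 30.3 and 39.2 CPM in C57BL/6J. Thsd7a, a membrane protein with thrombospondin repeats, was at 52.6 to 56.4 CPM on d15 and 49.9 to 55.7 CPM on d17 in Cav1-null and did not change by its own test, and it fell in C57BL/6J from 109, 120 and 113 to 67.7, 55.5 and 50.5 CPM. Without C57BL/6J d17 replicate 1, where 5792 genes were called, the genes named here were still called, with differences from -3.74 for Gm42992 to 1.82 for Pou4f1. With the replicate block, all 12 genes that the rule chose for the interaction lost their call. In the model of all 27 libraries, 11 of them lost it. By edgeR, 0 genes were called without Cav1-null d15 replicate 1, d15 replicate 3 or d17 replicate 3.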

How the results depend on the processing

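The number of genes called between d15 and d17 kept within 1.5 times of 5530 with the likelihood ratio test, DESeq2, RLE factors, library sizes alone and other filters. It was 829 (394 higher, 435 lower) in a model of all 27 libraries and 904 (626 and 278) with a log2 fold change of at least 1. With 1 library left out, the genes called lower ranged from 1715 to 2503, and without both d15 replicate 2 and d17 replicate 1, a setting added after seeing the data, they were 1705. Of 174 called genes that are named, 52 kept their call in every setting but the fold threshold, and no named gene was reversed. The replicate numbers did not pair the samples (correlations of deviations -0.16, 0.06 and 0.03), and with the replicate block 5132 genes were called. The interaction of Cav1-null and C57BL/6J gave 1249 genes (285 larger, 964 smaller) with the likelihood ratio test, 1294 (586 and 708) with DESeq2, 131 (14 and 117) with library sizes alone, 1010 (543 and 467) with no filter, 10 (3 and 7) with at least 10 reads in every library, 4 (0 and 4) in the model of all 27 libraries and 0 (0 and 0) by edgeR with the replicate block, under which 4366 genes had an unadjusted p under 0.05. RLE factors gave 15 larger values and the fold threshold 4. With 1 library left out the interaction genes ranged from 0 to 5792, the larger from 0 to 3742 and the smaller from 0 to 2050, the high values being those without C57BL/6J d17 replicate 1. Genes of Cav1-null called in the opposite way elsewhere were 14 higher and 53 lower in C57BL/6J and 26 and 110 in AKR/J with DESeq2, and 39 lower in C57BL/6J with library sizes alone. With 1 library left out, those called in the same way ranged from 72 to 1115 (higher) and 63 to 1034 (lower) in C57BL/6J and from 773 to 1464 and 452 to 1094 in AKR/J, and those called in the opposite way from 0 to 257 and 1 to 300 in C57BL/6J and from 0 to 23 and 7 to 132 in AKR/J. The cause of these shifts was not tested. In the lists with no gene called in a direction by edgeR, DESeq2 called none there either, apart from 1 downregulated oligodendrocyte gene and 1 upregulated gene of caveolae. The members with an unadjusted p under 0.05 in such a direction were Cav2, Cavin2, Vcan, Lin28b, Polr1a and Crabp2. The model of all 27 libraries called 1 endothelial gene and 1 meningeal gene upregulated and 2 erythroid genes and 1 eye gene downregulated, and no other marker of other cells. Counts under 1 CPM are too few for small changes to be detected.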
